A study of Homo sapiens with 35 samples.

Results

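The human mitochondrial genome is transcribed as a set of 37 genes, and all of them are rows of the deposited count tables. They were taken as every row whose identifier starts with MT-, which gave 37 of 59428 gene rows: 13 protein-coding genes, 2 ribosomal RNAs (rRNAs) and 22 transfer RNAs (tRNAs). The counts come from poly(A) RNA-seq of 35 libraries in 13 groups of 4 acute myeloid leukaemia lines: U937, THP-1, MOLM-13 and OCI-AML-3. Each line carries either a control guide (sgControl) or guides against the genes for histone H3 lysine 9 methyltransferases: SUV39H1 alone (SKO) or SUV39H1 and SUV39H2 together (DKO). U937 and THP-1 have sgControl, SKO and DKO groups of 3 libraries each, and U937 has the same 3 groups of 3 libraries after TPA, whose dose and duration the labels do not give. MOLM-13 has sgControl and SKO groups of 2 libraries each, and OCI-AML-3 has sgControl and DKO groups of 2 libraries each. U937, THP-1 and MOLM-13 were grown in RPMI-1640 and OCI-AML-3 in MEM alpha with more serum. Groups are called by their labels throughout.

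Mitochondrial DNA is transcribed from both strands as long precursors. In the standard account, tRNAs lying between the messengers and rRNAs are cut out, which releases the flanking RNAs, and most messengers then receive a short poly(A) tail. The 13 proteins are core subunits of respiratory complex I (MT-ND1 to MT-ND6 and MT-ND4L), complex III (MT-CYB), complex IV (MT-CO1 to MT-CO3) and ATP synthase (MT-ATP6 and MT-ATP8). All other subunits, the RNA polymerase, the processing enzymes and the mitochondrial ribosomal proteins are encoded in the nucleus, so a working respiratory chain needs products of both genomes.

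Of the protein-coding rows, 12 lie on the forward strand and 1, MT-ND6, on the reverse strand. Both rRNA rows are forward, and the tRNA rows are 14 forward and 8 reverse. Protein-coding rows are 207 to 1812 bases long and tRNA rows 59 to 75 bases. The map bears on how reads were assigned, since a read that falls on more than 1 row was left uncounted in the table whose counting command is known. The places where messengers overlap are shown on the GRCh38 reference, forward strand, from GENCODE release 29 transcripts, whose coordinates equal those of the files for all 37 rows. MT-ATP8 (chrM:8366-8572) shares its last 46 bases, in capitals, with MT-ATP6. MT-ND4L shares its last 7 bases with MT-ND4 (chrM:10707-10766, capitals), and the end of MT-ATP6 shares 1 base, the capital, with the start of MT-CO3 (chrM:9178-9237). No tRNA separates these pairs.
MT-ATP8: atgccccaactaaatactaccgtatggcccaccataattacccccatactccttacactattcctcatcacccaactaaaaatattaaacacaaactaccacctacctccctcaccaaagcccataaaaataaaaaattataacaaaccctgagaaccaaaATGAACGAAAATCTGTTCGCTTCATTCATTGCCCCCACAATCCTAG
MT-ND4L end: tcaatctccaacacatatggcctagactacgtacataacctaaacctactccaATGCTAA
MT-ATP6 to MT-CO3: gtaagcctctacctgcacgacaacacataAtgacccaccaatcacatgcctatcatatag

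Counted reads per library ran from 31985767 to 61178704, and reads on the MT rows from 1019449 to 3948919, so sampling noise is small for the rRNA and protein-coding rows and large for most tRNA rows. Replicates are labelled as such, and nothing says whether they came from separate cultures, so the spread behind each p-value is that of these libraries and may be technical. The myeloid markers PTPRC, SPI1, CD33, CSF1R, LYZ, CEBPA and FLI1 were detected in all libraries. MPO, also on that list, was at 0 in 2 libraries, with group means from 0.0662 to 0.489 CPM in U937 and of 350.8 CPM in MOLM-13 sgControl, where CPM are counts per 1000000 counted reads. B cell MS4A1 (at most 0.0556 CPM) and epithelial EPCAM (at most 0.155 CPM) were at or near 0. CD3E, HBB, KRT8 and COL1A1, markers of T, erythroid, epithelial and stromal cells, reached at most 2.06, 2.75, 2.71 and 1.42 CPM. PECAM1, listed as a stromal marker, ran from 76.3 to 628.8 CPM. The libraries labelled SKO and DKO in untreated U937 and THP-1 held more SUV39H1 reads than sgControl: means of 109.1 and 85.7 against 65.6 CPM in U937, and 88.9 and 62.4 against 32.2 CPM in THP-1. In treated U937 the means were 53.3 in SKO and 20.1 in DKO against 38.4 CPM in sgControl. In MOLM-13 SKO the mean was 7.35 against 28.6 CPM, and in OCI-AML-3 DKO 3.87 against 39.8 CPM. SUV39H2 means were 42.5, 34.5 and 33.9 CPM in untreated U937 sgControl, SKO and DKO, and 29.1, 19.1 and 15.6 CPM in THP-1. In treated U937 they were 21.1, 20.7 and 8.93 CPM. MOLM-13 had 27.4 CPM in sgControl and 11.85 in SKO, and OCI-AML-3 26.7 CPM in sgControl and 21.2 in DKO. A gene-level count does not show whether a guide disrupted the protein. The column headers give the DKO libraries of U937 and of THP-1 a clone or run code other than that of their controls, so knockout label and run cannot be told apart there. The TPA libraries stand in the other of the 2 tables than the untreated U937 libraries, so treatment and table cannot be told apart either.

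Per length, MT-CO1, the catalytic subunit of complex IV, led the 15 rRNA and protein-coding rows, with a median over the 13 groups of 8346 CPM per kb. MT-CO2, which passes electrons from cytochrome c, followed with 7129 and MT-RNR2, the large-subunit rRNA, with 6698 CPM per kb. MT-CO3 (6030), MT-ND4 (5907) and MT-ATP6 (5906 CPM per kb) lay close together, and their order changed between groups. MT-ND1 had 3576, MT-ATP8 2667, MT-ND4L 2654, MT-ND2 2438, MT-ND6 2388, MT-ND5 2368 and MT-CYB 2255 CPM per kb, and neighbours in this stretch exchanged places between lines. MT-ND3 (1327) and MT-RNR1, the small-subunit rRNA (729 CPM per kb), were lowest. The libraries are of poly(A) RNA, so the rRNA values are levels in that fraction and not amounts of all rRNA in the cells. MT-ND6 lies opposite a stretch that is also transcribed, and the known counting command carries no strand setting, so sense and antisense reads on it cannot be told apart.

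The lines differed in this profile. MT-RNR1 in sgControl stood at 2655 CPM per kb in MOLM-13 and 2447 in OCI-AML-3, against 993 in U937 and 853 in THP-1, and the U937 value includes 1 library that stands apart, described further on. MT-ATP8 stood at 571 CPM per kb in THP-1 sgControl, below the 2667 to 3000 CPM per kb of the sgControl groups of the other lines. These are descriptions of lines grown and sequenced separately, with no test between them, and the rRNA values are again those of poly(A) RNA.

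**Figure D1:**
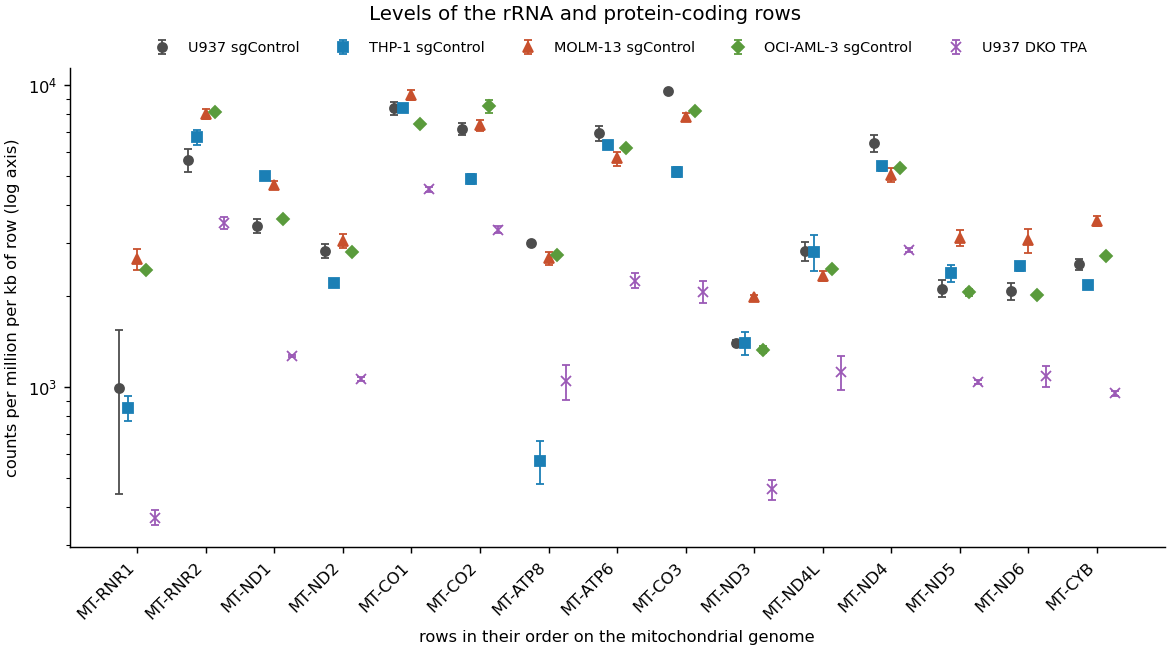
Level of the 2 rRNA and 13 protein-coding rows in CPM per kb (log axis, mean with SD over libraries), in their order on the genome, for the sgControl groups of 4 lines and for TPA-treated U937 DKO. U937 DKO after TPA is the lowest of the plotted groups at every row except MT-ATP8, where THP-1 sgControl is lower, at 571 against 1044 CPM per kb.

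The tRNA rows held 67512 of 90327200 MT reads, or 0.0747%. MT-TP, the proline tRNA at the edge of the control region, held 95.8% of them. Its row and that of MT-TC, the cysteine tRNA and the next most abundant, are printed for the reverse strand, 5′ to 3′. MT-TP is at chrM:15956-16023 and MT-TC at chrM:5761-5826, whose first base, in capitals, is shared with MT-TY.
MT-TP: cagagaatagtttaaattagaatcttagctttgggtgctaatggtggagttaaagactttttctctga
MT-TC: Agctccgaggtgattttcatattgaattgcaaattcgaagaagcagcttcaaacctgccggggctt
Of the 22 tRNA rows, 10 never exceeded 5 reads in a library. Those that passed the filter on low counts in at least 1 fit were MT-TP, MT-TC, MT-TF, MT-TE, MT-TG and MT-TS1, and only MT-TP and MT-TC passed in all fits. No tRNA row was at 0 in every library. The libraries are of poly(A) RNA and these rows are short, so the counts do not measure the amount of tRNA in the cells.

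The MT share of all counted reads ran from 2.805% to 9.49% over the 35 libraries. It was highest in MOLM-13 SKO, with 9.49% and 9.39%, and lowest in TPA-treated U937 DKO, with 2.93%, 2.87% and 2.805%. In MOLM-13 the sgControl libraries held 7.44% and 6.995%, so SKO was 1.31 times higher, with no overlap. In OCI-AML-3 the share was 6.68% and 6.56% in sgControl and 7.85% and 7.56% in DKO, 1.16 times higher, again with no overlap. In treated U937 the share was 6.06% ± 0.0729 in sgControl (SD, n = 3), 5.37% ± 0.184 in SKO and 2.87% ± 0.0643 in DKO, and the ranges of the 3 groups did not overlap.

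Untreated U937 differed less between guides. Its share was 6.46% ± 0.332 in sgControl, 6.335% ± 0.141 in SKO and 5.93% ± 0.221 in DKO, and the ranges of sgControl overlapped those of both knockouts, while DKO lay below SKO with no overlap. THP-1 sgControl (5.99% ± 0.227) and SKO (5.89% ± 0.215) overlapped, and THP-1 DKO (5.105% ± 0.0705) lay below both. No test was made of these sums over genes. A share can move through MT transcripts or through the other transcripts in the library, and in bulk RNA fewer transcripts per cell and a larger pool of other RNA cannot be told apart.

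**Figure D2:**
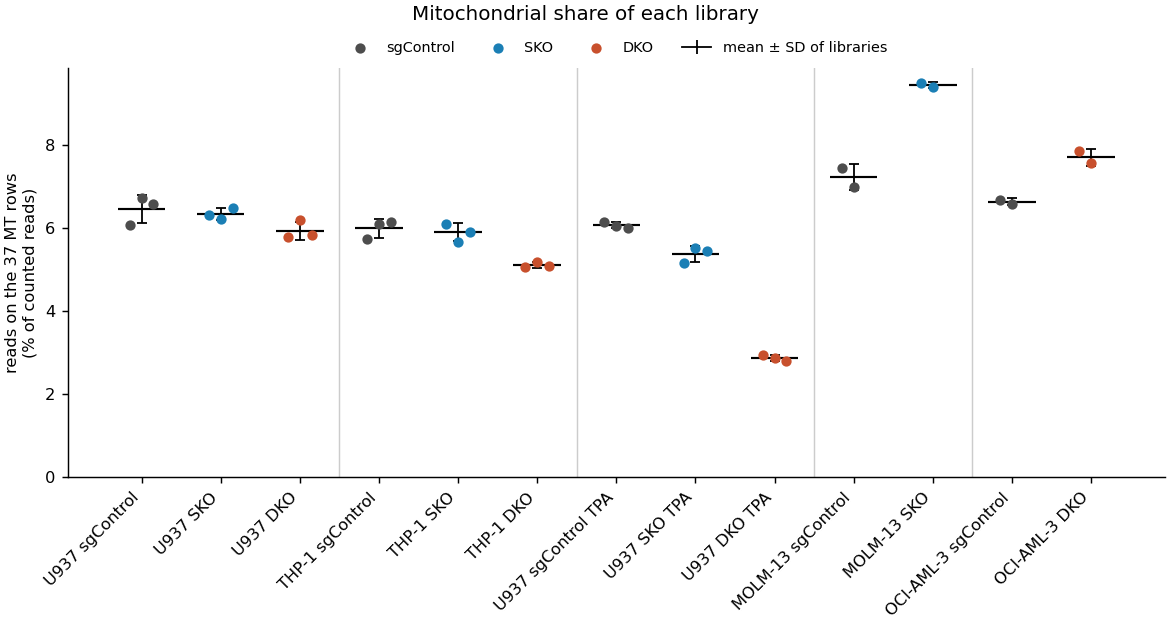
Reads on the 37 MT rows as a percent of all counted reads in each of the 35 libraries (points), with the mean and SD of each group (n = 3, or 2 in MOLM-13 and OCI-AML-3). TPA-treated U937 DKO sits at 2.805% to 2.93%, below all other libraries, and MOLM-13 SKO at 9.39% to 9.49%, above all others.

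Single genes were tested with edgeR's quasi-likelihood test over all genes of a fit, with Benjamini-Hochberg adjustment and calls at an adjusted p under 0.05. Fold changes are log2 values after TMM scaling, with their standard error (SE), while levels are plain CPM, and the scaling matters in some groups. In U937 and THP-1, calls are counted over 16 rows, the rRNA and protein-coding rows and MT-TP. The 5 other tRNA rows tested had at most 43 reads a library there, and were left out of these counts after their values were seen, since some passed the filter only through the groups where they were high. Set on plain totals, the median log2 fold change of all genes moved from 0.05 to 0.26 in THP-1 DKO against sgControl, from 0.05 to 0.24 in THP-1 DKO against SKO, from -0.06 to -0.28 in treated U937 DKO against sgControl and from -0.01 to -0.16 against SKO. For the TPA effect it moved from 0.05 to 0.12 in sgControl and from 0.03 to -0.20 in DKO. For the DKO effect it moved from -0.07 to -0.38 between treated and untreated U937 and from 0.03 to 0.21 between THP-1 and U937.

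In MOLM-13, all 13 protein-coding genes rose in SKO relative to sgControl, and the rise was uneven. Of the 18 MT rows tested, edgeR called 17 higher and 0 lower, the latter also at an unadjusted p under 0.05 and with DESeq2. Among all genes of this comparison 31.8% were called higher and 32.2% lower, and among the 544 nuclear genes of similar abundance (mean log2 CPM of at least 8) 43.6% higher and 46.5% lower. The median log2 fold change of the protein-coding genes was 0.32, from 0.10 for MT-CO3 to 0.85 for MT-CO1, beside 0.02 for all genes.

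MT-CO1 had 14676 and 13908 CPM in the sgControl libraries and 24711 and 24768 CPM in SKO, a log2 fold change of 0.85 ± 0.02 (SE, adjusted p = 6.8e-26, edgeR). The other complex IV subunits moved less. MT-CO2 changed by 0.39 ± 0.02 (adjusted p = 2.1e-15) and MT-CO3 by 0.10 ± 0.02 (adjusted p = 0.00012), and MT-CO3 was 1 of 2 rows whose libraries overlapped. MT-CO1 reads per MT-CO2 read went from 2.84 ± 0.00933 to 3.915 ± 0.113 (SD, n = 2). The complex I genes lay between 0.25 (MT-ND4L) and 0.58 (MT-ND3), where MT-ND3 went from 694.1 and 676.5 CPM to 996.6 and 970.0 CPM.

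MT-TP moved most in MOLM-13. It stood at 31.75 and 31.1 CPM in sgControl and at 112.9 and 107.8 CPM in SKO, a log2 fold change of 1.87 ± 0.05 (adjusted p = 2.4e-25). MT-TC rose as well, from 166 and 175 reads to 327 and 288 reads, by 1.06 ± 0.15 (adjusted p = 2.9e-07). MT-RNR2 rose by 0.45 ± 0.02 (adjusted p = 1.8e-18). MT-RNR1 changed by 0.11 ± 0.03 (adjusted p = 0.0022), and its call was lost without sgControl replicate 2, at 0.03, while without sgControl replicate 1 it was 0.18. MT-TF, with 4 to 18 reads in these libraries, was not called (-0.44 ± 0.73, adjusted p = 0.62).

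In OCI-AML-3, DKO also had higher MT transcripts than sgControl, and among the messenger rows MT-ND6, annotated on the reverse strand, changed most. The counting command for these libraries is not known, so the strand of the reads on MT-ND6 cannot be told. Of 18 rows tested, 13 were called higher and 1 lower, beside 24.3% of all genes higher and 25.6% lower. Among abundant nuclear genes 32.4% were higher and 39.7% lower. Of the protein-coding genes 11 of 13 rose, with a median of 0.28.

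MT-ND6 had 1052 and 1059 CPM in sgControl and 1501 and 1448 CPM in DKO, a log2 fold change of 0.49 ± 0.04 (adjusted p = 2.1e-13). MT-ND5, its neighbour on the other strand, followed with 0.40 ± 0.04 (adjusted p = 6.7e-12) and MT-CO2 with 0.38 ± 0.04 (adjusted p = 2.7e-11). MT-ND1 (0.06 ± 0.04, adjusted p = 0.21) and MT-ND2 (0.04 ± 0.04, adjusted p = 0.44) were not called. MT-TP rose from 40.13 and 39.05 CPM to 56.5 and 56.0 CPM, by 0.51 ± 0.07 (adjusted p = 1.4e-08). MT-TC (0.31 ± 0.19) and MT-TF (0.59 ± 0.45) were not called.

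The rRNAs parted in OCI-AML-3. MT-RNR2 was called higher (0.16 ± 0.04) and MT-RNR1 lower (-0.13 ± 0.04), with 2327.5 and 2340.8 CPM in sgControl and 2188 and 2066 CPM in DKO. These are small changes: the MT-RNR1 call was lost without either sgControl library (-0.13 without replicate 1, -0.14 without replicate 2) or DKO replicate 2 (-0.09). MT-RNR2 and MT-CO3 lost theirs without sgControl replicate 2 (0.14 and 0.11) or DKO replicate 1 (0.12 and 0.13), and MT-ND4L lost its call without either sgControl library (0.13 and 0.12) or DKO replicate 1 (0.06).

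In TPA-treated U937, the DKO libraries had the lowest group mean of the series for every rRNA and protein-coding row except MT-ATP8. All 13 protein-coding genes and both rRNAs fell relative to treated sgControl, and the libraries of the 2 groups overlapped for none of these 15 rows. Of 16 rows, 15 were lower and 0 higher, also at an unadjusted p under 0.05 and with DESeq2, beside 36.5% of all genes lower and 34.1% higher. Among abundant nuclear genes 38.9% were lower and 56.1% higher. The median of the protein-coding genes was -0.91, from -0.70 for MT-ND1 to -1.88 for MT-CO3.

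MT-CO3, a core subunit of complex IV, had 7074, 6950 and 6819 CPM in treated sgControl, 3717, 3872 and 3869 CPM in SKO, and 1773, 1570 and 1523 CPM in DKO. Its log2 fold change in DKO was -1.88 ± 0.03 (SE, adjusted p = 6.2e-26), against -0.71 ± 0.03 for MT-CO1 and -0.88 ± 0.03 for MT-CO2 of the same complex. The ATP synthase genes came next, MT-ATP8 with -1.34 ± 0.06 (adjusted p = 5.1e-17) and MT-ATP6 with -1.14 ± 0.03 (adjusted p = 3.3e-22). Complex I genes ranged from -0.70 (MT-ND1) to -0.96 (MT-ND5), and MT-CYB changed by -0.99 ± 0.03.

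The rRNAs fell less, MT-RNR2 by 0.51 and MT-RNR1 by 0.44 on the log2 scale. As a share of MT reads they took 20.15% ± 0.526 in treated DKO and 15.8% ± 0.301 in treated sgControl (SD, n = 3). MT-TP was not called, with -0.01 ± 0.06 (adjusted p = 0.85): it had 41.1, 39.8 and 36.2 CPM in sgControl and 34.1, 32.8 and 32.5 CPM in DKO. Against treated SKO, 16 of 16 rows were lower and 0 higher (also at an unadjusted p under 0.05 and with DESeq2), all 13 messengers included, beside 32.4% of all genes lower and 31.3% higher. There MT-ATP8 changed most, by -1.54 ± 0.06 (adjusted p = 4.4e-18), from 631, 691 and 764 CPM to 246.5, 191.1 and 210.9 CPM, and MT-TP was called, at -0.58 ± 0.06. MT-RNR1 against SKO was -0.43 ± 0.09, and -0.22 without SKO replicate 3, which had 672 CPM against 431 and 480 CPM in the other 2 SKO libraries.

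In treated SKO against treated sgControl, MT-CO3 fell by 0.79 ± 0.03 on the log2 scale (adjusted p = 4.9e-17), while no other protein-coding gene moved by more than 0.27. Of 16 rows, 4 were higher and 5 lower, beside 25.8% and 24.6% of all genes and 46% and 36% of abundant nuclear genes. The rows called higher were MT-TP (0.57 ± 0.06), MT-ND2 (0.25 ± 0.03), MT-ATP8 (0.20 ± 0.06) and MT-ND4 (0.16 ± 0.02), and besides MT-CO3 the lower ones were MT-CYB (-0.27 ± 0.03), MT-ND5 (-0.21 ± 0.03), MT-CO1 (-0.12 ± 0.03) and MT-ND6 (-0.10 ± 0.04). MT-ATP8 lost its call without SKO replicate 3 (0.13), and MT-ND6 without sgControl replicate 2 (-0.08) or 3 (-0.10) or SKO replicate 1 (-0.07) or 3 (-0.10). With only the 2 compared groups in the fit, 8 rows in place of 5 were lower.

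In untreated U937, MT-CO3 was lower in both knockouts. The 3 sgControl libraries had 7427, 7509 and 7509 CPM, the SKO libraries 4731, 4626 and 4826 CPM, and the DKO libraries 4671, 4839 and 4573 CPM. SKO against sgControl gave -0.63 ± 0.03 (adjusted p = 1.2e-17) and DKO against sgControl -0.74 ± 0.03 (adjusted p = 2.5e-19). The 2 comparisons share their control libraries.

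In U937 SKO, 5 of 16 rows were higher and 7 lower, beside 30.7% of all genes higher and 31.2% lower. Among abundant nuclear genes 41.7% were higher and 44.3% lower. The higher MT rows were MT-RNR2 (0.36 ± 0.04), MT-CO2 (0.18 ± 0.04), MT-TP (0.16 ± 0.05), MT-ND4 (0.16 ± 0.04) and MT-ND4L (0.13 ± 0.05). Apart from MT-CO3, MT-ND1 (-0.19 ± 0.04), MT-ND3 (-0.18 ± 0.04), MT-ATP8 (-0.16 ± 0.05), MT-CYB (-0.15 ± 0.03), MT-ATP6 (-0.09 ± 0.04) and MT-RNR1 (-0.42 ± 0.17) were lower. MT-CO1, MT-ND2, MT-ND5 and MT-ND6 were not called. Small calls were lost when 1 library was left out: MT-ATP8 without SKO replicate 2 (-0.08), MT-ATP6 without sgControl replicate 2 (-0.07) or 3 (-0.06) or SKO replicate 2 (-0.06), and MT-ND4L without sgControl replicate 1 (0.09) or SKO replicate 2 (0.12) or 3 (0.07). MT-ND4L was 0.20 without SKO replicate 1. Without SKO replicate 2, 4 rows in place of 7 were lower, and DESeq2 also called 4 lower.

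In U937 DKO most rows fell, with 12 of 16 rows lower and 2 higher, beside 34.5% of all genes lower and 33.2% higher. Abundant nuclear genes were lower in 60.6% of cases. Of the protein-coding genes 11 fell and the median was -0.28. MT-ATP8 changed most, from 615, 615 and 634 CPM in sgControl to 334, 369 and 372 CPM, by -0.86 ± 0.05 (adjusted p = 7.4e-15), then MT-CO3, MT-ND3 (-0.54 ± 0.04) and MT-CYB (-0.47 ± 0.03). MT-ATP8 is the shortest messenger, and of 50 tested nuclear rows under 250 bases 17 (34%) were lower and 9 (18%) higher here, with a median of -0.45 beside -0.01 for all genes. The part of row length in the MT-ATP8 value was not tested. MT-CO1 (-0.07 ± 0.03, adjusted p = 0.069) and MT-ND4L (-0.06 ± 0.05, adjusted p = 0.27) were not called. MT-RNR2 (0.24 ± 0.04) and MT-TP (0.35 ± 0.05) rose. Against SKO, 13 of 16 rows were lower and 1 higher, beside 24.9% and 24.1% of all genes, and abundant nuclear genes were lower in 60.1% of cases. There the protein-coding median was -0.21. MT-RNR2 was called lower against SKO at -0.12 ± 0.04, a call lost without SKO replicate 3 (-0.10) or DKO replicate 1 (-0.09).

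MT-RNR1 in untreated U937 rested on 1 library. The sgControl libraries had 646, 1553 and 643 CPM, the SKO libraries 669, 688 and 721 CPM and the DKO libraries 662, 701 and 722 CPM, so that sgControl replicate 2 alone was high. MT-RNR2 reads per MT-RNR1 read were 12.7, 6.24 and 13.2 in these 3 sgControl libraries. The fitted values of -0.42 ± 0.17 in SKO (adjusted p = 0.033) and -0.51 ± 0.17 in DKO (adjusted p = 0.0098) turned to 0.13 (adjusted p = 0.0061) and 0.04 (adjusted p = 0.38) without that library. Without sgControl replicate 3 the SKO value was -0.64. The SKO call was also lost without SKO replicate 1 (-0.40) or 2 (-0.42), and the DKO call without DKO replicate 1 (-0.46). Its column header carries a lane code shared by SKO replicate 1 (669 CPM) and DKO replicate 2 (701 CPM), neither of which was high.

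Some tRNA rows with at most 22 reads a library had other counts in U937 DKO than in the other untreated U937 groups. They are given as counts with no test, since these rows passed the filter only through the groups where they were high. MT-TG, the glycine tRNA that directly follows MT-CO3, had 16, 14 and 10 reads in the DKO libraries, 0 in all sgControl and SKO libraries, and 1 read in all the other groups of the series together. MT-TS1 had 17, 15 and 12 reads in sgControl, 22, 15 and 7 in SKO and 1 in each DKO library. MT-TE had 7, 21 and 10 reads in sgControl, 11, 11 and 10 in SKO and 4, 2 and 0 in DKO. Summed over the 13 forward tRNA rows other than MT-TF, reads per library were 51, 39 and 17 in DKO and 3 to 6 in sgControl and SKO. Over the 6 reverse rows other than MT-TP and MT-TC they were 14, 6 and 6 in DKO and 35 to 59 in sgControl and SKO. The forward sum was thus high and the reverse sum low, beside untreated sgControl and SKO, in the same 3 libraries, whose column headers have a form of their own. The rows left out of the sums did not follow this. MT-TF had 2, 7 and 7 reads in DKO and 1, 8 and 10 in sgControl. MT-TC had 9, 10 and 11 against 10, 14 and 6, and the reverse row MT-TP was called higher in DKO. In treated U937 and the other lines the reverse sum ran from 2 to 23 reads, so the low DKO sums were not particular to DKO. Reads were counted with no strand option, so forward and reverse name the rows and not the strand of the reads.

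In THP-1 SKO both rRNAs fell, and of the messengers 6 rose and 3 fell. MT-RNR2 had 9744, 10744.4 and 10840.5 CPM in sgControl and 6832, 6429 and 6795 CPM in SKO, a log2 fold change of -0.66 ± 0.04 (adjusted p = 4.6e-15). MT-RNR1 went from 729, 829 and 882 CPM to 515.7, 488.2 and 534.5 CPM, by -0.68 ± 0.05 (adjusted p = 3.1e-13). Of 16 rows, 6 were higher and 6 lower, beside 20.6% and 22.8% of all genes and 37.7% and 30.2% of abundant nuclear genes. The 6 higher were all messengers: MT-ND6 (0.29 ± 0.04), MT-ND5 (0.28 ± 0.04), MT-ND4L (0.22 ± 0.05), MT-ND4 (0.22 ± 0.04), MT-CO2 (0.20 ± 0.04) and MT-CYB (0.20 ± 0.04). MT-ND4L was 0.12 without sgControl replicate 1. The lower messengers were MT-ATP6 (-0.24 ± 0.04), MT-CO3 (-0.21 ± 0.04) and MT-ND1 (-0.10 ± 0.04). MT-ND1 lost its call without sgControl replicate 2 (-0.10) or SKO replicate 2 (-0.05) or 3 (-0.10), and MT-TP (-0.21 ± 0.07) without sgControl replicate 2 (-0.19) or 3 (-0.18) or SKO replicate 1 (-0.20) or 3 (-0.20).

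In THP-1 DKO most genes were lower than in sgControl, and MT-ATP8 was 1 of the few that were higher. Of 16 rows, 12 were lower and 3 higher, beside 33.7% of all genes lower and 31.9% higher, with abundant nuclear genes lower in 63.8% of cases. MT-RNR2 changed by -0.92 ± 0.04 (adjusted p = 1e-18), MT-ATP6 by -0.85 ± 0.04 (adjusted p = 3.7e-17), MT-ND1 by -0.69 ± 0.04 and MT-CO3 by -0.61 ± 0.04. MT-TP fell from 24.58, 28.65 and 29.35 CPM to 17.6, 15.2 and 16.4 CPM, by 0.95 ± 0.08 on the log2 scale (adjusted p = 3e-12). MT-CO2 was not called (0.02 ± 0.04), although its plain CPM of 3910 ± 20.0 (SD, n = 3) lay above the 3345 ± 133.5 of sgControl. MT-ND6 (0.19 ± 0.04) and MT-ND5 (0.10 ± 0.04) were called higher, and the call of MT-ND5 was lost without sgControl replicate 1 (0.05) or DKO replicate 2 (0.08) or 3 (0.09). Against SKO, 14 of 16 rows were lower and 2 higher, beside 28.5% and 25.3% of all genes, with 69.8% of abundant nuclear genes lower. MT-ND4L fell most among the messengers there, by 0.81 ± 0.05 (adjusted p = 1.2e-13). MT-ND6 against SKO (-0.10 ± 0.04) lost its call without SKO replicate 1 (-0.08) or 3 (-0.09) or DKO replicate 1 (-0.09) or 3 (-0.10).

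MT-ATP8 had 99.3, 118.0 and 137.1 CPM in THP-1 sgControl, 87.45, 107.4 and 121.0 CPM in SKO and 371.8, 418.8 and 377.6 CPM in DKO. DKO against sgControl gave 1.52 ± 0.08 (adjusted p = 2.5e-16), although MT-ATP6, which is carried on the same messenger, fell by 0.85. MT-ATP8 reads per MT-ATP6 read were 0.02745 ± 0.00418 in THP-1 sgControl, 0.0288 ± 0.00559 in SKO and 0.142 ± 0.00392 in DKO (SD, n = 3). In all other groups this ratio lay between 0.0891 and 0.1775. THP-1 sgControl and SKO are the 2 groups below that range, and THP-1 DKO lies within it. MT-TC had 0, 6 and 3 reads in sgControl, 2, 4 and 2 in SKO and 36, 43 and 34 in DKO. It passed the filter only through DKO, so no test of it is given.

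Of 130 tested nuclear rows under 250 bases, 39 (30%) were higher and 7 (5.38%) lower in THP-1 DKO against sgControl, beside 31.9% and 33.7% of all genes. The share higher was thus near that of all genes and the share lower was smaller, with a median of 0.92 beside 0.05 for all genes. MT-ATP8 is 207 bases long, and 161 of these lie outside MT-ATP6. The THP-1 DKO columns carry another run code than the THP-1 sgControl and SKO columns, and the read lengths are not given in the sources used here, so the part of read or fragment length in the MT-ATP8 and MT-TC values was not tested.

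**Figure D3:**
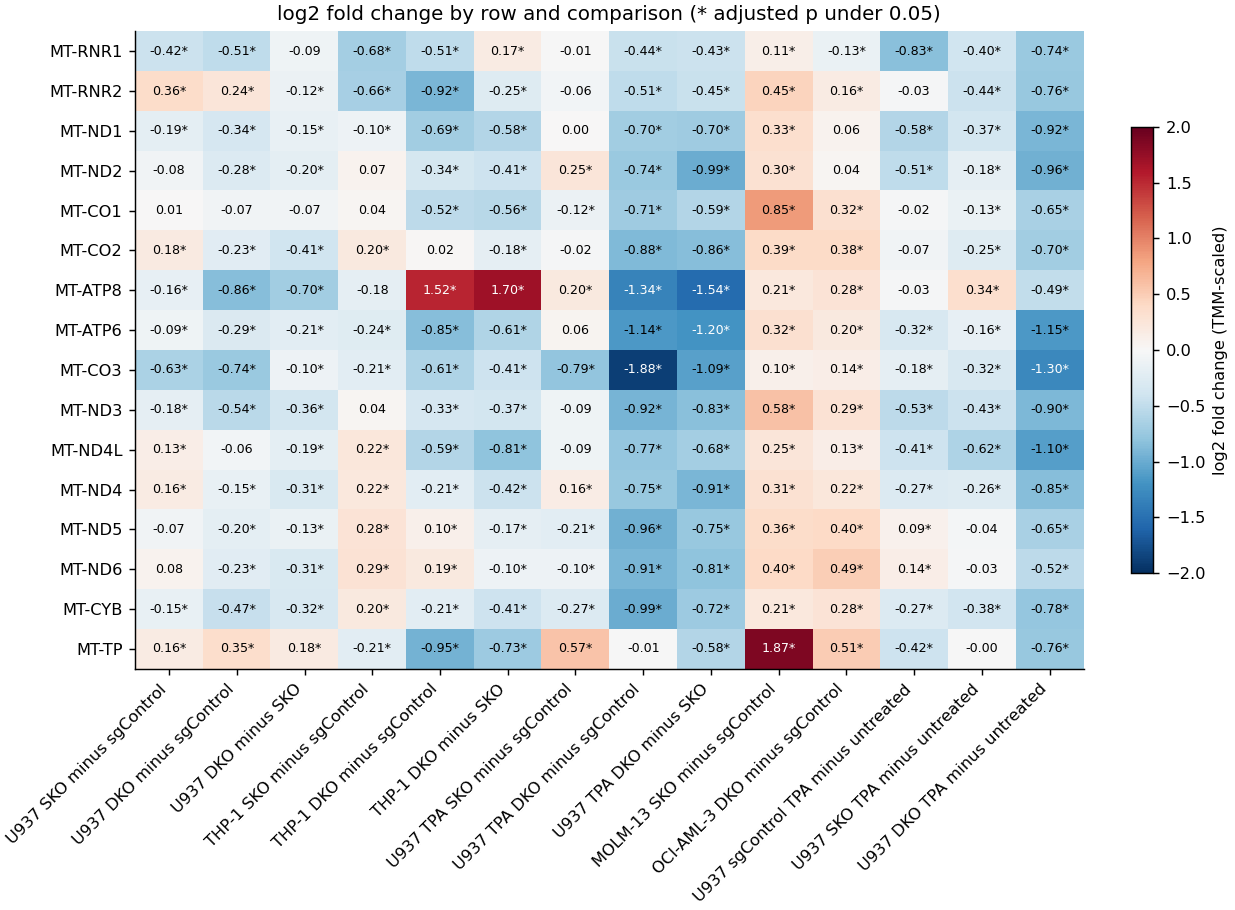
TMM-scaled log2 fold changes of the rRNA and protein-coding rows and of MT-TP (rows of the grid) in 14 comparisons (columns), coloured from -2 to 2, with a star where the adjusted p is under 0.05. MT-CO3 is the deepest messenger in untreated U937 SKO (-0.63) and in treated SKO (-0.79) and DKO (-1.88), MT-ATP8 has its highest values in THP-1 DKO (1.52 and 1.70), and the MOLM-13 column is positive throughout.

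The ratio of MT-CO3 to MT-ATP6 reads, which does not depend on the library scaling, separated the U937 knockouts from their controls. These messengers abut with a shared base (printed above) and no tRNA between them. In U937 sgControl the ratio was 1.59 ± 0.0849, with libraries from 1.53 to 1.69, in SKO 1.09 ± 0.0131 and in DKO 1.17 ± 0.0312 (SD, n = 3). After TPA it was 1.76 ± 0.0482 in sgControl, 0.976 ± 0.00533 in SKO and 1.06 ± 0.0543 in DKO. In both settings each knockout library lay below each control library.

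In MOLM-13 the ratio was 1.58 ± 0.03895 in sgControl and 1.36 ± 0.00872 in SKO (n = 2), and in OCI-AML-3 1.53 ± 0.006525 in sgControl and 1.47 ± 0.00631 in DKO. THP-1 sgControl stood at 0.937 ± 0.0287, with SKO at 0.964 ± 0.0466 and DKO at 1.11 ± 0.0569. The column headers name a single clone for U937 DKO and for THP-1 sgControl and SKO, so clone and guide cannot be told apart there.

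**Figure D4:**
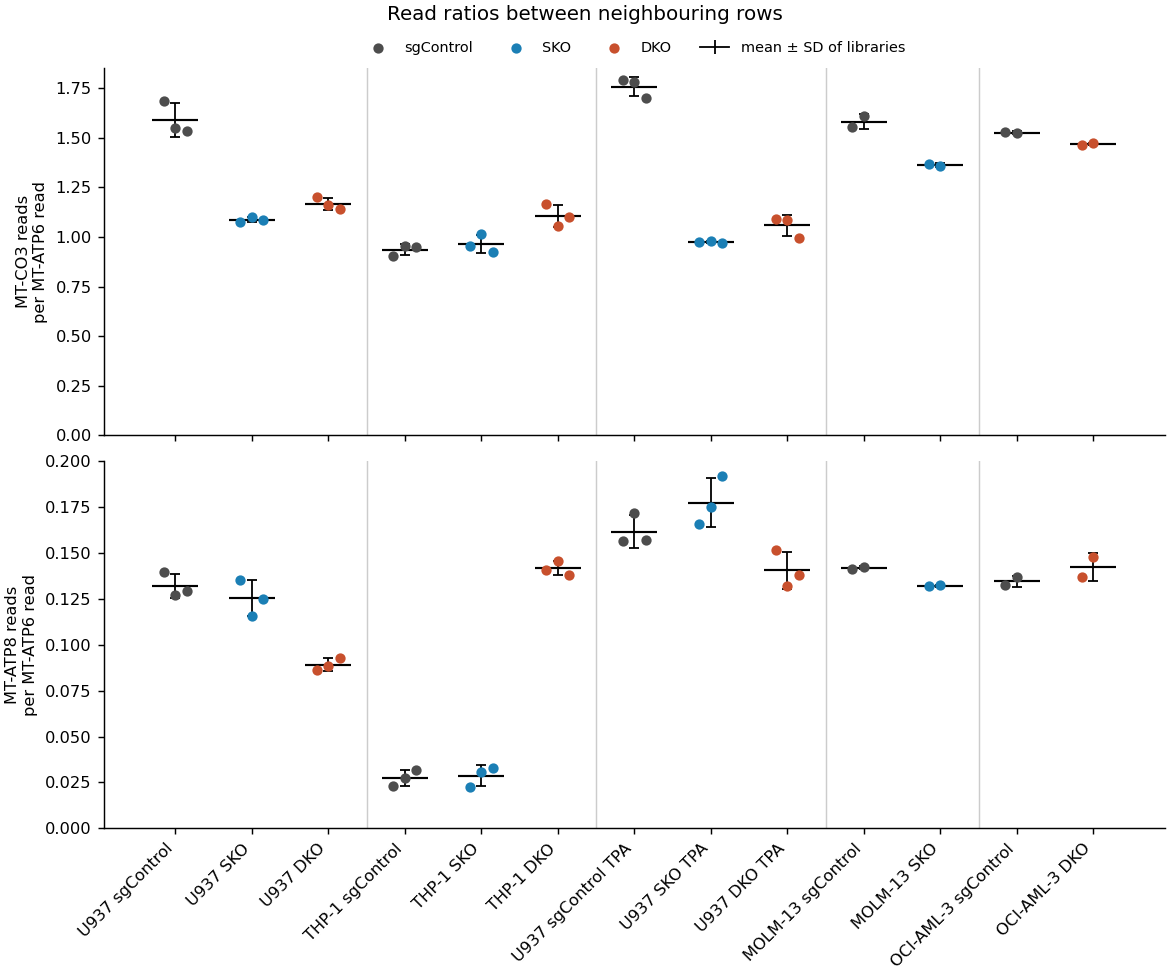
Reads on MT-CO3 per read on MT-ATP6 (upper panel) and on MT-ATP8 per read on MT-ATP6 (lower panel) in each library (points), with the mean and SD of each group; both axes start at 0. U937 sgControl lies at 1.53 to 1.69 in the upper panel and the U937 knockouts below it, and THP-1 sgControl and SKO lie apart in the lower panel at means of 0.02745 and 0.0288.

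MT-RNR2 reads per MT-RNR1 read were 4.93 ± 0.198 in MOLM-13 sgControl and 5.45 ± 0.0855 in OCI-AML-3 sgControl, and 6.24 ± 0.245 and 6.65 ± 0.00893 in their knockouts, respectively. In THP-1 they were 12.87 ± 0.543, 13.04 ± 0.290 and 9.72 ± 0.161 in sgControl, SKO and DKO. MT-ND4 reads per MT-ND1 read were 2.71 ± 0.126 in U937 sgControl and 3.45 ± 0.0839 in SKO, and 1.55 ± 0.0283, 1.94 ± 0.00758 and 2.17 ± 0.0222 in THP-1 sgControl, SKO and DKO, all with libraries that did not overlap. MT-ND6 reads per MT-ND5 read lay between 0.2695 and 0.333 in all 35 libraries. These rows are annotated on opposite strands, but the strand of the reads counted on them is not known.

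TPA-treated U937 was set against untreated U937 within each genotype. In sgControl 10 of 16 rows were lower and 2 higher, beside 33.2% and 34.6% of all genes. Among abundant nuclear genes 54% were lower and 40% higher. MT-ND1 fell from 3118, 3224 and 3461 CPM to 2304, 2313 and 2271 CPM, by 0.58 ± 0.04 on the log2 scale (adjusted p = 4.6e-16). MT-ND3 (-0.53 ± 0.05) and MT-ND2 (-0.51 ± 0.04) moved alike, while MT-CO1, MT-CO2, MT-ATP8 and MT-RNR2 were not called. MT-RNR1 was -0.83 ± 0.17, and -0.28 without untreated sgControl replicate 2, the library with the high MT-RNR1 count. The 2 higher rows, MT-ND6 (0.14 ± 0.05) and MT-ND5 (0.09 ± 0.04), both lost their calls without untreated sgControl replicate 1 (0.10 and 0.04). MT-ND5 lost its call also without treated sgControl replicate 1 (0.09) or 2 (0.08), and DESeq2 called neither.

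In SKO 12 of 16 rows were lower with TPA and 1, MT-ATP8 (0.34 ± 0.06), was higher, beside 31.4% and 31.5% of all genes. Among abundant nuclear genes 55.1% were lower and 34.2% higher. Of the called MT rows, MT-ND4L (-0.62 ± 0.06) and MT-RNR2 (-0.44 ± 0.04) changed most. Outside the 16 rows, MT-TS1 had 22, 15 and 7 reads in untreated and 1, 0 and 0 in treated SKO, and MT-TE 11, 11 and 10 against 4, 1 and 1 reads, with no test given. MT-RNR1 (-0.40 ± 0.17) lost its call without any of the 3 untreated SKO libraries (-0.42, -0.40 and -0.37) and without treated replicate 1 (-0.28) or 2 (-0.34), and was -0.61 without treated replicate 3. In DKO 16 of 16 rows were lower and 0 higher (also at an unadjusted p under 0.05 and with DESeq2), beside 36.2% and 36.9% of all genes, and the libraries overlapped for none of the 15 rRNA and protein-coding rows. MT-CO3 fell by 1.30 ± 0.04 and MT-ATP6 by 1.15 ± 0.04 on the log2 scale, and the protein-coding median was -0.85. Treatment and table cannot be told apart in these comparisons.

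The test of the difference itself asked whether a knockout effect changed with TPA. For DKO, 15 of 16 rows were more negative after TPA and 0 more positive (also at an unadjusted p under 0.05 and with DESeq2), beside 27.8% and 21.7% of all genes. Among abundant nuclear genes 44.8% were more negative and 36.5% more positive. All 13 protein-coding genes were among the 15, from -0.34 ± 0.05 (MT-ND1) to -1.12 ± 0.05 (MT-CO3, adjusted p = 1.6e-20). For SKO, 5 rows were more positive and 4 more negative, led by MT-TP (0.42 ± 0.08) and MT-RNR2 (-0.41 ± 0.06). Of all genes 19.6% were more positive and 18.1% more negative, and of abundant nuclear genes 36.8% and 36.3%. The MT-CO3 difference for SKO (-0.14 ± 0.05) lost its call without untreated SKO replicate 3, treated sgControl replicate 1 or treated SKO replicate 1, at -0.12 each. MT-ND4L (-0.21 ± 0.08) lost its call when any of 9 of the 12 libraries was left out, at -0.14 to -0.22. MT-RNR1, not called for DKO (0.09 ± 0.24), was -0.46 (adjusted p = 0.00094) without untreated sgControl replicate 2.

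Between lines, the effect in THP-1 was set against that in U937. For SKO, 5 of 16 rows were more positive in THP-1 and 3 more negative, beside 22.7% and 24.1% of all genes. Among abundant nuclear genes 39.3% were more positive and 41.4% more negative. MT-CO3 differed by 0.42 ± 0.05 (adjusted p = 7.1e-09) and MT-RNR2 by -1.03 ± 0.06 (adjusted p = 7.2e-16). For DKO, 6 were more positive and 6 more negative, beside 24.7% and 29.7% of all genes and 29.5% and 53.9% of abundant nuclear genes. MT-ATP8 differed most there among messengers (2.33 ± 0.11, adjusted p = 5.2e-19), with the run codes given above, and MT-RNR2 differed by -1.20 ± 0.06 (adjusted p = 8.6e-18).

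Nuclear copies of mitochondrial DNA can take or give reads. The tables hold 415 such rows, 278 of them at 0 in all libraries, and 3 copies on chromosome 1, MTATP6P1, MTND2P28 and MTCO1P12, held 99.4% of their reads. Reads on all copies came to 0.415% to 1.69% of the MT reads of a library. MTATP6P1 (chr1:633696-634376) matches MT-ATP6 in all but 10 of 681 aligned bases and held 5.51% to 11.7% as many reads as it. MTCO1P12 (chr1:631074-632616) matches MT-CO1 at 98.7% of 1542 bases and held at most 0.176% as many reads.

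MTND2P28 differed between THP-1 and the other lines. Its row (chr1:629640-630683, forward strand) matches MT-ND2 in all but 17 of 1042 aligned bases. The windows below, 80 bases of each, MT-ND2 at chrM:4879-4958 and the copy at chr1:630049-630128, show 4 of these differences in capitals, which is what a read needs to be placed on 1 of them.
MT-ND2 window: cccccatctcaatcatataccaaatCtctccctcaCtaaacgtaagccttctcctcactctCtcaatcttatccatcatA
MTND2P28 window: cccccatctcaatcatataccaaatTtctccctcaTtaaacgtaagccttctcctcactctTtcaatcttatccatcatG
MTND2P28 had 577 ± 40.5, 614 ± 11.1 and 527 ± 13.1 CPM in THP-1 sgControl, SKO and DKO (SD, n = 3), which is 25.1%, 25.2% and 25.2% of the MT-ND2 level. In the groups of the other lines it had 1.67 to 5.24 CPM, or 0.115% to 0.157% of MT-ND2. MT-ND2 was at the same time lowest in THP-1 among the untreated sgControl groups, with 2298 ± 25.7 CPM against 2941 ± 155.5 in U937. Whether reads of 1 row were placed on the other was not tested.

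The nuclear genes that make and use MT transcripts give a comparison, described by counts and medians. In MOLM-13 SKO, where MT messengers rose, more members of these lists were lower than higher. Of 77 tested mitochondrial ribosomal protein genes 61 were lower and 5 higher (median -0.34), of 37 RNA processing and decay genes 24 were lower and 3 higher (median -0.28), and of 19 genes for transcription and replication of mitochondrial DNA 10 were lower and 2 higher (median -0.33). Of all genes 32.2% were lower and 31.8% higher, with a median of 0.02. TFAM, which packages mitochondrial DNA and starts its transcription, fell from 109.6 ± 1.04 to 58.8 ± 0.682 CPM (SD, n = 2), by 0.84 ± 0.04 on the log2 scale (adjusted p = 7.2e-18). MTPAP, the mitochondrial poly(A) polymerase, fell by 0.58 ± 0.06. The nuclear subunits of complex I had 17 lower and 4 higher of 37 (median -0.14).

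In OCI-AML-3 DKO, of the complex I subunits 11 were higher and 2 lower of 37 (median 0.06), while 22 of 77 ribosomal protein genes were lower and 7 higher (median -0.11) and 11 of 19 transcription and replication genes were lower and 2 higher (median -0.20). Of all genes 24.3% were higher and 25.6% lower, so the complex I share higher and the ribosomal protein share lower were near those of all genes. TFAM fell there as well, from 118.3 ± 0.118 to 78.9 ± 9.26 CPM (n = 2), by 0.58 ± 0.06 on the log2 scale (adjusted p = 6.6e-11).

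In treated U937 DKO most members of the nuclear lists fell. Ribosomal protein genes were lower for 61 of 77 (median -0.56), ATP synthase subunits for 16 of 18 (median -0.58), complex I subunits for 26 of 36 (median -0.38) and RNA processing and decay genes for 27 of 36 (median -0.56). Of all genes 36.5% were lower, with a median of -0.05. TWNK, the mitochondrial DNA helicase, fell from 61.4 ± 1.13 to 19.9 ± 2.74 CPM (SD, n = 3), by 1.40 ± 0.06 on the log2 scale, and TOP1MT, the mitochondrial topoisomerase, from 111.9 ± 3.24 to 29.6 ± 3.585 CPM, by 1.69 ± 0.06. Within the processing list 3 genes rose, PNPT1 and TRMT5 among them. PNPT1, an exonuclease of mitochondrial RNA turnover that is also known as an interferon-induced gene, went from 104.1 ± 2.60 to 316.4 ± 1.28 CPM (1.83 ± 0.04, adjusted p = 7.4e-25). TRMT5, a tRNA methyltransferase, went from 18.2 ± 1.84 to 87.4 ± 3.06 CPM (2.48 ± 0.06, adjusted p = 5.6e-23).

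In untreated U937 SKO, ribosomal protein genes were lower for 66 of 77 (median -0.45) and processing and decay genes for 31 of 37 (median -0.53), beside 31.2% of all genes, and complex IV subunits were lower for 3 and higher for 4 of 11 (median 0.06). The 13 MT messengers had a median of -0.08. PNPT1 fell there from 161.1 ± 4.91 to 80.05 ± 2.53 CPM (SD, n = 3), by 0.98 ± 0.04 on the log2 scale (adjusted p = 2.6e-18), and TWNK fell from 145.2 ± 1.16 to 71.8 ± 0.843 CPM. In U937 DKO 61 of 77 ribosomal protein genes (median -0.54) and 17 of 18 ATP synthase subunits (median -0.51) were lower, beside 34.5% of all genes and 60.6% of abundant nuclear genes. Of 10 regulators of mitochondrial biogenesis 4 were lower and 3 higher in SKO, and 5 lower and 2 higher in DKO. Among them PPARGC1A, a coactivator of mitochondrial biogenesis, rose in both, from 13.05 ± 1.15 CPM to 26.2 ± 0.782 in SKO and 40.8 ± 1.93 CPM in DKO.

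In THP-1 DKO all 18 ATP synthase subunits (median -0.63), 31 of 37 complex I subunits (median -0.52), 11 of 12 complex IV subunits (median -0.58) and 65 of 77 ribosomal protein genes (median -0.53) were lower, beside 33.7% of all genes and 63.8% of abundant nuclear genes. In SKO the corresponding numbers were 7 of 18, 19 of 37, 7 of 12 and 28 of 77, beside 22.8% of all genes and 30.2% of abundant nuclear genes. MTPAP fell in DKO from 35.45 ± 3.80 to 17.1 ± 1.33 CPM (SD, n = 3), a log2 fold change of -1.2545 ± 0.08 (adjusted p = 1.7e-14). With TPA in U937 sgControl, 68 of 77 ribosomal protein genes (median -0.74) and 29 of 37 processing and decay genes (median -0.63) were lower, beside 33.2% of all genes and 54% of abundant nuclear genes. Complex II has 4 subunits, all nuclear. All 4 were lower against sgControl in U937 SKO, treated SKO and treated DKO, beside 31.2%, 24.6% and 36.5% of all genes. In U937 DKO and THP-1 DKO 3 were lower, beside 34.5% and 33.7%. In MOLM-13 SKO 2 were lower and 1 higher, beside 32.2% and 31.8%. In THP-1 SKO 1 was lower and 1 higher, near the 22.8% and 20.6% of all genes. In OCI-AML-3 DKO 0 were lower and 2 higher, beside 25.6% and 24.3%, by edgeR.

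**Figure D5:**
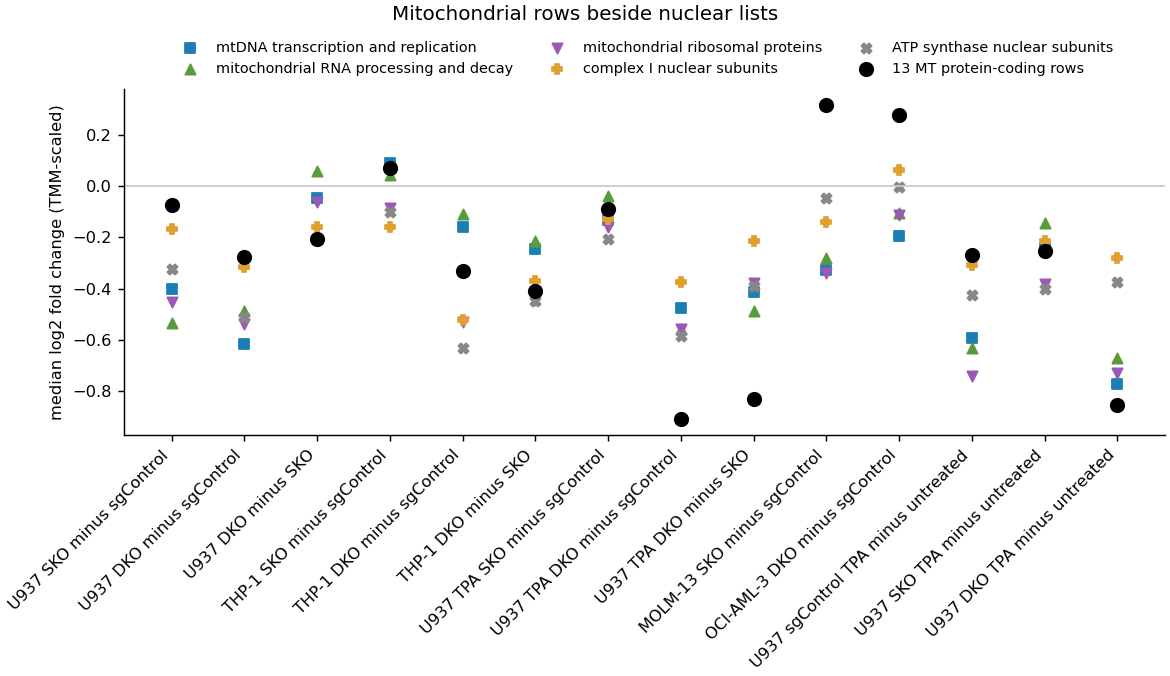
Median TMM-scaled log2 fold change of the 13 MT protein-coding genes (black) and of 5 lists of nuclear genes (colours) in 14 comparisons. The black point is above the lists in MOLM-13 SKO (0.32 against medians of -0.34 to -0.05) and in OCI-AML-3 DKO. It is also above them, though negative, in untreated U937 SKO (-0.08) and DKO (-0.28) against sgControl and for TPA in sgControl (-0.27). It is below them in treated U937 DKO against sgControl (-0.91) and against SKO (-0.83), and for TPA in DKO (-0.85).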

How the data were processed

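The labels describe poly(A) RNA libraries made with a directional kit. Per the submitters' processing notes the authors used fastp 0.23.4, STAR 2.7.11b, featureCounts of Subread 2.0.6 and hg38. The 2 deposited tables hold raw counts per gene for 59428 rows, with equal coordinates in both. Per the file headers, the counts of the table with untreated U937 and THP-1 were made with GENCODE 38, by gene name, on paired reads counted singly, with no strand option and without reads on several places or several rows. The command for the other table is not given in the sources used here. No deposited column was left unused.

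The members and gene lists were chosen with earlier results of these data known. CPM and shares use all counted reads of a library as the denominator. Tests used edgeR 4.0.16 in R 4.3.3 (filterByExpr, TMM, glmQLFit, glmQLFTest), 1 fit for each line and treatment, with Benjamini-Hochberg adjustment over all genes of the fit and a threshold of 0.05. SE is the log2 fold change over the square root of F. The pipeline was tested on simulated data. Differences between effects came from interaction terms in fits of 18 libraries. All rRNA and protein-coding rows are named, with tRNA rows that passed the filter in any fit. Of each nuclear list at most 2 called genes a comparison were eligible to be named, those with the largest change, a mean log2 CPM of at least 3 and groups that do not overlap. Alternatives were DESeq2 1.42.0, its size factors, scaling on nuclear genes, no filter, only the compared groups, a replicate block, each library left out and, chosen after seeing the data, the 3 U937 libraries of 1 header code left out. Pairs of replicates differed by more than sampling noise (chi-square per gene at least 2.97).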

Additional observations from a re-analysis of the deposited data

Results flagged for a closer look

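Each value here is a difference between 2 knockout effects on the log2 scale that passed edgeR's interaction test at an adjusted p under 0.05. The SKO effect in U937 differed after TPA for MT-RNR2 (-0.41), MT-ND1 (0.21), MT-ND2 (0.33), MT-CO2 (-0.19), MT-ATP8 (0.37), MT-ATP6 (0.16), MT-CO3 (-0.14), MT-ND4L (-0.21) and MT-TP (0.42). The DKO effect in U937 was more negative after TPA for all 13 messengers: MT-ND1 (-0.34), MT-ND2 (-0.45), MT-CO1 (-0.63), MT-CO2 (-0.63), MT-ATP8 (-0.46), MT-ATP6 (-0.83), MT-CO3 (-1.12), MT-ND3 (-0.37), MT-ND4L (-0.69), MT-ND4 (-0.58), MT-ND5 (-0.75), MT-ND6 (-0.66) and MT-CYB (-0.51). It was also more negative for MT-RNR2 (-0.73) and MT-TP (-0.34). Treated and untreated libraries stand in different tables, and the part of that in these values was not tested.

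The SKO effect in THP-1 minus that in U937 was -1.03 for MT-RNR2, -0.17 for MT-ATP6, 0.42 for MT-CO3, 0.20 for MT-ND3, 0.33 for MT-ND5, 0.20 for MT-ND6, 0.34 for MT-CYB and -0.39 for MT-TP. MT-ATP6 lost its call when any of 8 libraries was left out, at -0.08 to -0.17, and MT-ND3 was 0.31 without U937 SKO replicate 3. The same difference for DKO was -1.20 for MT-RNR2, -0.39 for MT-ND1, -0.50 for MT-CO1, 0.20 for MT-CO2, 2.33 for MT-ATP8, -0.60 for MT-ATP6, 0.16 for MT-ND3, -0.57 for MT-ND4L, 0.26 for MT-ND5, 0.38 for MT-ND6, 0.21 for MT-CYB and -1.34 for MT-TP. MT-CO2 lost its call without U937 sgControl replicate 2 (0.13), and MT-ND3 when any of 7 libraries was left out, at 0.06 to 0.14. Without U937 DKO replicate 2, MT-ND1 was -0.25, MT-CO2 0.35, MT-ND3 0.30, MT-ND5 0.39 and MT-CYB 0.35. MT-ND5 was 0.17 without THP-1 sgControl replicate 1. MT-ND3 was 0.27 without U937 sgControl replicate 3 and 0.24 without U937 DKO replicate 1.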

How the results depend on the processing

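The replicate block left all 242 called gene results called in the same direction and added 5 calls among 306 results. The labels do not say whether the replicate numbers pair the samples. Deviations of libraries with the same number correlated above 0.1 in 7 of 31 pairs (-0.082 to 0.301), most of these in THP-1. DESeq2 lost 15 of the 242 calls, its size factors 5, no filter 2 and scaling on nuclear genes 1, with no called gene reversed. DESeq2 called 4 rows lower in U937 SKO and 0 higher for TPA in sgControl, where nuclear scaling and no filter each gave 1. For the TPA difference of the SKO effect, 7 rows were lower with nuclear scaling and 2 with DESeq2. Treated SKO had 8 lower with only the compared groups. Without the 3 U937 libraries of 1 lane code, chosen after seeing the data, MT-RNR1 was 0.15 in SKO and 0.0268 in DKO, and 1 row in place of 2 was higher in DKO against SKO. Those 2 include MT-TG, which passed the filter only through DKO, so that count is no result about it. Counts of rows here are over all tested MT rows. The 242 called gene results include those of MT-TC in THP-1, where it passed the filter only through DKO.

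Uncalled values near 0 changed sign. MT-RNR1 in treated SKO was 0.0056 with DESeq2 size factors, 0.0053 with DESeq2 and 0.0045 with no filter. MT-TP in treated DKO was 0.0371 with DESeq2 size factors, 0.0373 with DESeq2 and 0.0152 with only the compared groups, and for TPA in SKO it was 0.0155 with both DESeq2 settings. MT-ND4 was -0.0041 for the TPA difference of the SKO effect with nuclear scaling.

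Share ratios are log2 values. With the 13 protein-coding rows only and without the rRNAs they were -0.0879 and -0.0877 in U937 SKO, -0.1992 and -0.1985 in U937 DKO, 0.0888 and 0.0886 in THP-1 SKO, -0.1436 and -0.1439 in THP-1 DKO, -1.1567 and -1.1557 in treated DKO, and -0.9744 and -0.9741 in treated DKO against SKO. With nuclear reads scaled by TMM as denominator they were -0.1876 in U937 DKO, -0.1883 in U937 DKO against SKO, -0.4365 in THP-1 DKO, -0.3925 in THP-1 DKO against SKO, -0.0985 in treated SKO, -0.8564 in treated DKO, -0.7579 in treated DKO against SKO, 0.4473 in MOLM-13 SKO, -0.1745 for TPA in sgControl and -0.8447 for TPA in DKO. The cause was not tested.

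With 1 library left out at a time, counts ranged from 4 to 9 lower in U937 SKO, 0 to 1 lower in OCI-AML-3, 0 to 2 higher for TPA in sgControl, 2 to 8 lower for the TPA difference of the SKO effect and 5 to 8 higher for the SKO effect in THP-1 minus U937. The MOLM-13 share ratio ranged from 0.34 to 0.43. MT-RNR1 ranged from -0.64 to 0.13 in U937 SKO, -0.73 to 0.0436 in U937 DKO, -0.21 to 0.12 in treated SKO, -0.12 to 0.65 and -0.46 to 0.30 for the TPA differences of the SKO and DKO effects, and -0.82 to 0.0244 and -0.65 to 0.27 for the differences between lines. Uncalled MT-TC ranged from -0.0248 to 0.43 in U937 DKO, -0.86 to 0.63 in THP-1 SKO, -0.18 to 0.82 in treated DKO, -0.78 to 0.0605 in treated DKO against SKO, -0.21 to 0.58 and -0.33 to 0.68 for the TPA differences, and -1.42 to 0.0578 for SKO between lines. Other uncalled values that crossed 0 were, for TPA in SKO, MT-TP (-0.0310 to 0.0493), in treated DKO MT-TP (-0.0745 to 0.0272), in U937 SKO MT-CO1 (-0.0258 to 0.0334), in THP-1 SKO MT-ND3 (-0.0221 to 0.0764), in THP-1 DKO MT-CO2 (-0.0112 to 0.0180), in treated SKO MT-ND1 (-0.0198 to 0.0347) and MT-CO2 (-0.0394 to 0.0044), and for TPA in sgControl MT-RNR2 (-0.0769 to 0.0414) and MT-CO1 (-0.0590 to 0.0031). For the TPA difference of the SKO effect MT-ND4 ranged from -0.0087 to 0.0687. Between lines the SKO effect crossed 0 for MT-CO1 (-0.0116 to 0.11), MT-CO2 (-0.0288 to 0.11), MT-ATP8 (-0.16 to 0.0754) and MT-ND4L (-0.0106 to 0.22), and the DKO effect for MT-ND2 (-0.19 to 0.0472) and MT-ND4 (-0.18 to 0.0516). In THP-1 sgControl and SKO, MT-TC had 0 to 6 reads a library and passed the filter in that line only through DKO, so its ranges there are no test of it. The tRNA rows other than MT-TP held few reads in most libraries. The part of row length, poly(A) selection and uncounted reads on several rows in this was not tested.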
